A study of Mus musculus with 25 samples.

Results

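Pancreatic islets of mice labelled KO_PBS were compared with islets of mice labelled CTR_PBS by RNA sequencing, across all genes measured. There are 2 libraries in each group, 4 of the 25 libraries of the series, and they were taken by their labels. PBS is phosphate-buffered saline, and 2 further libraries of the same table (KO_REG3B-Fc) come from knockout mice given the protein REG3B fused to Fc. The series is about BAF60C, a subunit of SWI/SNF chromatin remodelling complexes encoded by Smarcd3, and elsewhere in the series mice with ablation in beta cells through Pdx1-cre (BcBKO) are set against flox/flox mice. The sample labels of these 4 libraries give only "KO" and "CTR": they state neither the gene, the Cre driver, the strain, the age nor the diet, so whether these animals are the BcBKO line is not given in the sources used here. Pdx1-cre, where it is used, is active in the progenitors of the whole pancreas and not in beta cells alone. Each library is a pool of islets from at least 3 mice per the labels, so the spread between libraries is a spread between pools. For context, values are also given from flox/flox and BcBKO islets after 3 months of a high-fat diet, and from islets labelled WT.

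The islet is a cluster of endocrine cells inside the exocrine pancreas. Beta cells make insulin, alpha cells glucagon, delta cells somatostatin and PP cells pancreatic polypeptide, while the acinar cells around them secrete digestive enzymes and remain attached to isolated islets in varying amounts. Beta cells take up glucose through GLUT2 (Slc2a2), metabolise it, and close K-ATP channels as ATP rises, which opens calcium channels and releases insulin granules. Transcription factors such as MAFA, NEUROD1, PDX1 and NKX6-1 keep this programme in place, and MAFA and the peptide urocortin 3 (Ucn3) appear late, in mature beta cells. In bulk islets, fewer cells of a type and less RNA per cell cannot be told apart.

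The islet label held in all 4 libraries: Ins1 and Ins2, the insulin genes, together made 57.5% and 58.4% of all FPKM (fragments counted per kilobase of a transcript, relative to the fragments of its library) in the CTR_PBS libraries and 38.9% and 38.2% in the KO_PBS libraries. The acinar list of 30 measured genes made 16.2% and 16.0% in CTR_PBS and 33.3% and 34.5% in KO_PBS. As deposited, the median gene was at -0.438 log2 units in KO_PBS against CTR_PBS. Changes are therefore given after scaling each library to its median gene (the median-gene scale, median change -0.002), and beside it on an endocrine scale. The endocrine scale further divides each library by its median ratio over 29 genes shared by all endocrine cells, such as Chga, Neurod1 and Snap25, whose median change was -0.17 on the median-gene scale. It shows which endocrine genes differ from the typical endocrine gene and does not measure expression per cell. Most of its reference genes are also members of the granin, exocytosis, beta cell factor, glucose sensing and processing lists below. The medians of those lists on this scale are thus drawn towards no change by construction. FPKM values below are as deposited, and changes are KO_PBS minus CTR_PBS in log2(scaled FPKM + 1) with their standard error (SE), tested with limma and Benjamini-Hochberg adjusted p-values at a threshold of 0.05.

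Of 11789 genes tested, 2905 (24.6%) were higher and 2357 (20.0%) lower in KO_PBS on the median-gene scale, 6190 genes having an unadjusted p under 0.05. On the endocrine scale 5321 (45.1%) were higher and 852 (7.23%) lower, and with the deposited FPKM 1021 (8.66%) were higher and 9603 (81.5%) lower. Higher genes thus made 55.2% of the calls on the median-gene scale, 86.2% on the endocrine scale and 9.61% with the deposited values. In the authors' deposited table, 1813 of the tested genes were higher and 1888 lower at an adjusted p under 0.05. Without CTR_PBS replicate 1 the lower calls on the median-gene scale were 1436, and without CTR_PBS replicate 2 they were 1513, and on the endocrine scale they were 537 and 520. Over the 10 lists of endocrine genes, 138 genes were tested, of which 50 (36.2%) were lower on both scales, beside 7.23% of all tested genes, and 42 (30.4%) were higher on both, beside 24.6%. The endocrine scale moves all genes of a library by a common factor, so a call on both scales is not a second test. All 2905 genes higher on the median-gene scale were also higher on the endocrine scale. All 852 genes lower on the endocrine scale were also lower on the median-gene scale. List counts below are read beside the shares of all genes tested.

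**Figure D1:**
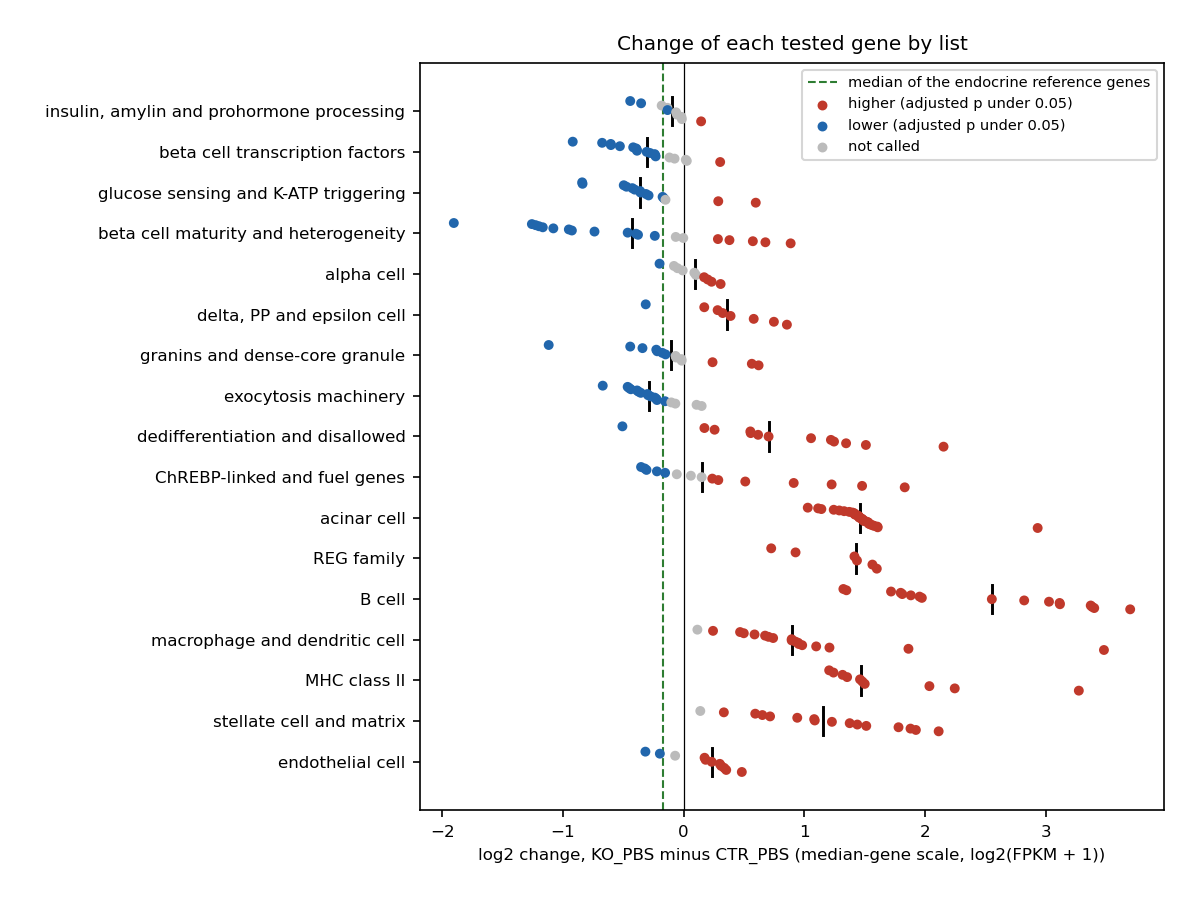
Each point is a tested gene, placed by its log2 change in KO_PBS against CTR_PBS on the median-gene scale (x axis, log2 FPKM + 1) and grouped by gene list (rows), with a black bar at the list's median and a dashed line at the median of the endocrine reference genes (-0.17). The lists of beta cell factors, glucose sensing, maturity and exocytosis lie mostly left of the dashed line, while acinar, B cell and MHC class II genes all lie right of 0.

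Smarcd3, the gene of BAF60C, was not called on either scale with all libraries. It (chr5:24592622-24624456, GRCm38.p6) was measured at 1.03 and 1.15 FPKM in CTR_PBS and at 0.75 and 1.09 FPKM in KO_PBS. On the endocrine scale both KO_PBS libraries lay above both CTR_PBS libraries, with a difference of 0.23 that was not called (adjusted p = 0.0948). The groups overlapped on the median-gene scale, with a difference of 0.14 ± 0.101 (SE, adjusted p = 0.284) that turned to -0.13 with the deposited values. Without KO_PBS replicate 1 the difference was 0.31 (adjusted p = 0.0238) and without KO_PBS replicate 2 it was -0.01. The labels name neither the deleted gene nor the deleted part, so this value checks no label. Of 19 tested SWI/SNF subunits, 1 was higher and 5 lower on the median-gene scale, with a list median of -0.08, beside 24.6% higher and 20.0% lower of all genes tested. On the endocrine scale 5 were higher and 0 lower, beside 45.1% and 7.23% of all genes. Smarcd2, which encodes the related subunit BAF60B, was the higher one, at 15.6 and 15.0 FPKM in CTR_PBS, against 14.2 and 13.5 FPKM in KO_PBS. Its change was 0.36 on the median-gene scale and 0.52 on the endocrine scale, while with the deposited values it was lower by -0.14 (adjusted p = 0.0258).

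Among the beta cell transcription factors tested, the largest fall was that of Mafa (-0.92 on the median-gene scale). Of 19 tested beta cell transcription factors, 14 were lower and 1 higher in KO_PBS on the median-gene scale (list median -0.31). The shares of all genes were 20.0% and 24.6%. On the endocrine scale 11 were lower and 2 higher (-0.14), beside 7.23% and 45.1% of all genes. Mafa (chr15:75745501-75748321), an activator of insulin and glucose sensing genes, was at 68.2 and 63.9 FPKM in CTR_PBS and at 22.9 and 24.8 FPKM in KO_PBS. Its change was -0.92 ± 0.0607 (adjusted p = 7.61e-06), and -0.75 on the endocrine scale. Both KO_PBS libraries lie far below both controls, and the 2 libraries of a group are close to each other. Neurod1, a basic helix-loop-helix factor needed for endocrine differentiation, was at 41.7 and 40.9 FPKM against 18.4 and 18.8 FPKM in KO_PBS, a change of -0.60 and, on the endocrine scale, -0.44. Insm1, a zinc-finger factor of endocrine cells, was at 46.1 and 45.3 FPKM against 19.6 and 21.6 FPKM, with the same rounded changes of -0.60 and -0.44. Mnx1, a homeodomain factor of beta cells named here after its values were seen, changed by -0.67, and Glis3, a zinc-finger activator of the insulin gene, by -0.53.

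The factors that hold beta cell identity most broadly moved less. Pdx1 was at 65.1 and 63.2 FPKM in CTR_PBS, against 33.6 and 32.6 FPKM in KO_PBS, a change of -0.42 on the median-gene scale and -0.25 on the endocrine scale. Nkx6-1, which represses non-beta genes, changed by -0.39 and -0.22 on the same scales. Nkx2-2 (-0.31 and -0.14) and Isl1 (-0.28 and -0.12) also passed the test on both scales. Pax6, a factor of all islet endocrine cells, was lower on the median-gene scale (-0.23) but not called on the endocrine scale (-0.07, adjusted p = 0.224). Rfx6 was not called on the median-gene scale (0.03, adjusted p = 0.677), was higher on the endocrine scale (0.19, adjusted p = 0.0101) and lower with the deposited values (-0.48). Foxo1 passed on neither of the scaled fits, with values of -0.07 and, on the endocrine scale, 0.08.

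Insulin itself stood nearer to the typical endocrine gene. Ins2 was at 639898 and 666118 FPKM in CTR_PBS and at 404393 and 393547 FPKM in KO_PBS, and its change of -0.18 on the median-gene scale was not called (adjusted p = 0.107), nor was that of -0.01 on the endocrine scale. With the deposited values Ins2 was called lower (-0.71, adjusted p = 2.1e-06). The authors' DESeq2 results also had it lower, at -0.22 (adjusted p = 1.87e-09). Ins1 was lower on the median-gene scale (-0.35, adjusted p = 0.00419) and not called on the endocrine scale (-0.18, adjusted p = 0.0813) or without a filter on low values (adjusted p = 0.197). Within the libraries Ins1 was 0.259 and 0.261 of Ins2 in CTR_PBS and 0.225 and 0.237 of Ins2 in KO_PBS. Iapp, which encodes amylin and is released with insulin, was 0.0598 and 0.0587 of Ins2 in CTR_PBS and 0.0609 and 0.0616 in KO_PBS, and its change was -0.13 (adjusted p = 0.0664) on the median-gene scale and 0.04 on the endocrine scale. It was called lower with the deposited values (-0.66, adjusted p = 8.47e-07) and in the authors' DESeq2 results (-0.17, adjusted p = 1.07e-06). Of the 10 tested genes for insulin, amylin and their processing, 3 were lower and 1 higher on the median-gene scale, beside 20.0% and 24.6% of all genes, and 1 was lower and 4 were higher on the endocrine scale, beside 7.23% and 45.1%.

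The processing enzymes had values near those of insulin. Pcsk1 and Pcsk2, the convertases that cut proinsulin, were not called on the median-gene scale (-0.01 and -0.06) and were higher on the endocrine scale (0.15 and 0.11). Cpe, the carboxypeptidase that trims the cut hormones, was at 1616 and 1628 FPKM against 1093 and 1127 FPKM, not called on the median-gene scale (-0.02) and higher by 0.15 on the endocrine scale. Scg5, the chaperone of Pcsk2, was higher on both scales (0.15 and 0.31) but lower with the deposited values (-0.38), and its call on the median-gene scale was lost without CTR_PBS replicate 1 (adjusted p = 0.103). Slc30a8, the zinc transporter of the insulin granule, went the other way: it was at 270.0 and 256.5 FPKM in CTR_PBS, against 131.0 and 137.2 FPKM in KO_PBS, a change of -0.44 and, on the endocrine scale, -0.27.

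Genes of glucose sensing were lower as a list, with unequal changes among its members. Of 15 tested genes, 12 were lower and 2 higher on the median-gene scale (median -0.36), beside 20.0% and 24.6% of all genes. On the endocrine scale 10 were lower and 2 higher (median -0.21), beside 7.23% and 45.1%. G6pc2 (chr2:69211073-69227993), the islet glucose-6-phosphatase subunit, was at 2150.4 and 2019 FPKM in CTR_PBS and at 843 and 775 FPKM in KO_PBS. That is a change of -0.84 ± 0.0501 (adjusted p = 4.5e-06) and of -0.67 on the endocrine scale. Slc2a2, the glucose transporter, was at 75.8 and 73.6 FPKM against 39.1 and 38.7 FPKM, with changes of -0.40 and -0.24 on the median-gene and endocrine scales.

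Of the K-ATP channel subunits, Kcnj11, which encodes the pore, was lower on both scales (-0.29 and -0.13). Abcc8, its sulfonylurea receptor partner, was lower on the median-gene scale (-0.16, adjusted p = 0.00643) and had a change of 0.0049 on the endocrine scale, and its call on the median-gene scale was lost without CTR_PBS replicate 1 (adjusted p = 0.0532). Trpm5, a cation channel named after its values were seen, was at 7.92 and 7.57 FPKM against 2.65 and 2.67 FPKM, a change of -0.84. The receptors for fatty acids and GLP-1 were lower on both scales, with changes of -0.50 and -0.34 for Ffar1 and of -0.47 and -0.31 for Glp1r. Gipr, the receptor of the other incretin, was not called on either scale (-0.15 with adjusted p = 0.054, and 0.01 on the endocrine scale). Pcx, pyruvate carboxylase, was lower on both scales (-0.42 and -0.26). Glud1, glutamate dehydrogenase, was higher on both (0.29 and 0.45), while with the deposited values it was lower by -0.23.

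The list of beta cell maturity and heterogeneity had the widest range of the endocrine lists, from -1.90 to 0.89. On the median-gene scale 13 of 20 tested genes were lower and 5 higher, beside 20.0% and 24.6% of all genes. On the endocrine scale 12 were lower and 5 higher, beside 7.23% and 45.1%. Ucn3 (chr13:3940688-3945349), the peptide that stimulates delta cells, was at 245.1 and 243.3 FPKM in CTR_PBS and at 90.5 and 87.0 FPKM in KO_PBS. Its change was -0.93 ± 0.0348 (adjusted p = 3.54e-07), and -0.76 on the endocrine scale. Gad1, which makes GABA, was at 34.4 and 33.0 FPKM against 9.15 and 9.48 FPKM, changes of -1.26 and -1.10. Ppp1r1a, a phosphatase inhibitor of beta cells, changed by -0.95 and -0.78, and Slc6a17, a vesicular amino acid transporter, by -0.74 and -0.58. Cox6a2, a cytochrome oxidase subunit, was at 20.4 and 18.0 FPKM against 6.27 and 4.55 FPKM, changes of -1.20 and -1.05. In each of these genes both KO_PBS libraries were below both controls by far more than the libraries of a group differed.

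Spp1 (chr5:104435111-104441053), which encodes the secreted phosphoprotein osteopontin, had the lowest value of the list. It was at 444.0 and 426.5 FPKM in CTR_PBS and at 82.0 and 78.2 FPKM in KO_PBS, a change of -1.90 ± 0.0379 (adjusted p = 3.5e-08) and of -1.74 on the endocrine scale. Spp1 is also a duct cell gene. Of 12 tested duct genes, Spp1 included, 7 were higher and 3 lower on the median-gene scale, 9 and 1 on the endocrine scale, and 4 and 5 with the deposited values. The shares of all genes were 24.6% and 20.0%, 45.1% and 7.23%, and 8.66% and 81.5%. Muc1, an apical mucin, was higher on the median-gene scale (1.10) and so was Krt19, a duct keratin (0.93). The summed level of the 14 duct members, Spp1 included, was 806.2 and 771.5 FPKM in CTR_PBS and 380.2 and 380.5 FPKM in KO_PBS. Most of that sum in CTR_PBS, and most of its fall, was Spp1. The CTR_PBS level was itself high beside the other islet libraries of the series, whose tables were normalised separately: Spp1 lay between 32.9 and 52.2 FPKM in the 5 WT libraries, with a median of 33.2 FPKM, and at 90.6 and 101.4 FPKM in the flox/flox islets on a high-fat diet (HFD). Rgs4, a regulator of G-protein signalling, was at 29.9 and 29.6 FPKM in CTR_PBS, against 8.91 and 8.62 FPKM in KO_PBS, while WT islets spanned 3.31 to 27.9 FPKM. Angptl7, a secreted angiopoietin-like protein, was at 12.7 and 12.5 FPKM in CTR_PBS, against 3.92 and 3.56 FPKM in KO_PBS, where WT islets spanned 2.1 to 3.47 FPKM. For Spp1, Rgs4 and Angptl7, then, the CTR_PBS libraries and not the KO_PBS libraries lay farther from the WT libraries. Other lower genes did the same. Pdx1 spanned 24.1 to 40.3 FPKM in WT islets, with both CTR_PBS libraries above that range and both KO_PBS libraries inside it. Glp1r (20.24 to 36.45 FPKM in WT) and Glis3 (3.7 to 8.13 FPKM) had the same pattern. Ucn3 and Gad1 did not: their WT ranges (111.8 to 398.2 and 14.6 to 40.9 FPKM) held both CTR_PBS libraries and neither KO_PBS library. Hspb6, a small heat shock protein, changed by -1.23 on the median-gene scale.

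Of the maturity genes that were higher, Rgs16, another regulator of G-protein signalling, was at 16.6 and 16.7 FPKM in CTR_PBS, against 22.2 and 21.8 FPKM in KO_PBS, a change of 0.89. Cd81, a tetraspanin that marks immature beta cells and is expressed in many other cells, changed by 0.57 on the median-gene scale and was not called with the deposited values (0.06, adjusted p = 0.344). Vegfa, through which beta cells feed islet capillaries, was lower on both scales (-0.39 and -0.23), as was Wfs1, an endoplasmic reticulum protein (-0.38 and -0.22).

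**Figure D2:**
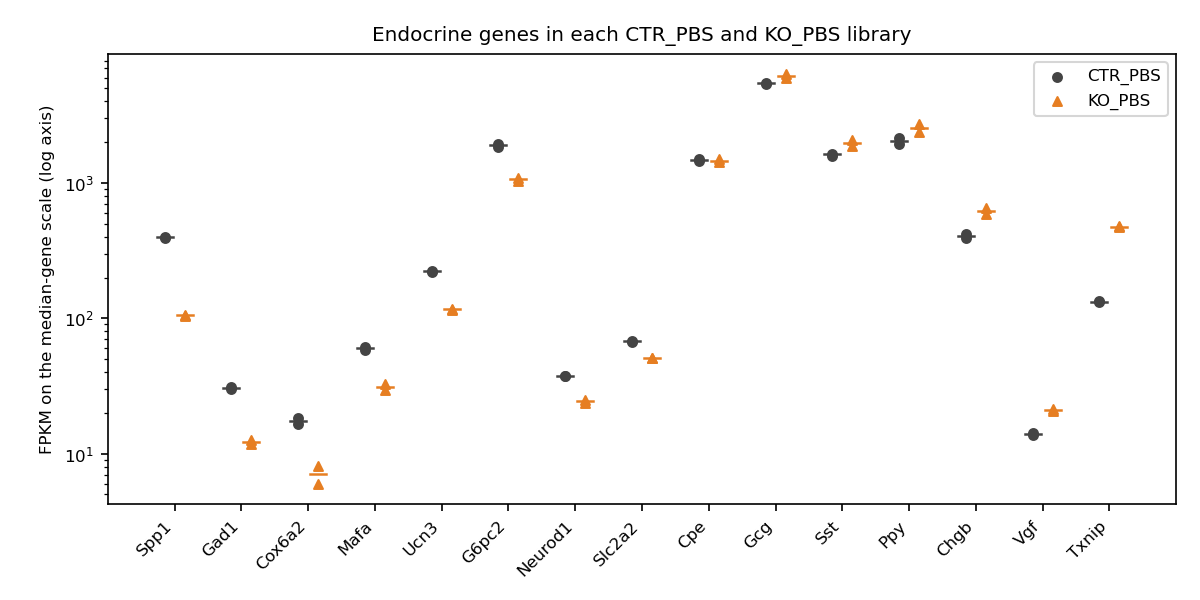
FPKM on the median-gene scale (y axis, log axis) of endocrine genes in each CTR_PBS library (grey circles) and KO_PBS library (orange triangles), with a bar at the mean of each group. The KO_PBS points of Spp1, Gad1, Mafa, Ucn3 and G6pc2 lie below both controls, those of Chgb, Vgf and Txnip lie above, and those of Cpe overlap.

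The promoters of 2 of these genes show a motif that can be read beside the values. Members of the neurogenic basic helix-loop-helix family, NEUROD1 among them, bind the E-box CATCTG, read as CAGATG on the other strand. The 250 bases before the annotated start (RefSeq, GRCm38.p6) hold it in 14.4% of 32851 promoters. Counted by gene, with a copy in any promoter of the gene, it was held by 11.8% of 9496 tested genes with an annotated promoter. Of the 36 endocrine list genes lower on both scales with an annotated promoter, 10 held it (27.8%). These shares are a description of letters, not of binding. Ucn3, lower on both scales, and Iapp, called on neither, each hold 1 copy, in capitals, 87 and 111 bases before the start. They are shown because the same letters stand before a gene that was lower and one that was not called. Their positions are chr13:3945350-3945599 on the minus strand for Ucn3 and chr6:142298175-142298424 on the plus strand for Iapp.

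Ucn3: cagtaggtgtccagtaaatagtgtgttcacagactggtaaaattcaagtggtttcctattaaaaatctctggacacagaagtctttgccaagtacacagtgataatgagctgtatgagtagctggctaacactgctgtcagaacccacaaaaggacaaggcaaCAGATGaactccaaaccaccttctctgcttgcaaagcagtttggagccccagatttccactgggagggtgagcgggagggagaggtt

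Iapp: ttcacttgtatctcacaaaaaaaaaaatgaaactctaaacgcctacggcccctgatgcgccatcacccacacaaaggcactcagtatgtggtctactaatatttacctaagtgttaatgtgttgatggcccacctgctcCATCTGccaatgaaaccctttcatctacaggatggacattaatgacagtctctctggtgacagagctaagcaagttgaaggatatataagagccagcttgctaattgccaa

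Granule genes moved in both directions, and exocytosis genes were mostly lower on the median-gene scale. Of 14 tested granin and dense-core granule genes, 7 were lower and 3 higher on the median-gene scale (median -0.11). The shares of all genes were 20.0% and 24.6%. On the endocrine scale 3 were lower and 5 higher (0.06), beside 7.23% and 45.1% of all genes. Members of this list help to set that scale. Chgb, a granin that packs hormones into granules, was at 433.2 and 459.9 FPKM in CTR_PBS and at 505.2 and 448.8 FPKM in KO_PBS, where the deposited values overlapped (0.09, adjusted p = 0.167). Scaled to the median gene it was at 390.3 and 420.8 FPKM against 656 and 593.5 FPKM, a change of 0.62 ± 0.0643 (adjusted p = 0.000104), and of 0.79 on the endocrine scale. Chga, its paralog, was at 4539 and 4548 FPKM against 2696 and 2687 FPKM, lower on the median-gene scale (-0.23) and not called on the endocrine scale (-0.06). Vgf, a granin-like precursor of secreted peptides, was higher on both scales (0.57 and 0.73) and not called with the deposited values (0.07, adjusted p = 0.21). Ptprn, the granule membrane protein IA-2, was higher on both scales (0.24 and 0.41) but lower with the deposited values (-0.29). Scg2, another granin, was lower on the median-gene scale (-0.22) and not called on the endocrine scale (-0.05).

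Phactr1, a regulator of actin and phosphatase 1, was the lowest of that list, at 29.1 and 27.6 FPKM in CTR_PBS, against 8.69 and 8.6 FPKM in KO_PBS, changes of -1.12 and -0.96. Of 18 tested genes of the exocytosis machinery, 14 were lower and 0 higher on the median-gene scale (median -0.28). The shares of all genes were 20.0% and 24.6%. On the endocrine scale 9 were lower and 1 higher (-0.12), beside 7.23% and 45.1% of all genes. The SNARE protein gene Snap25 was not called on either scale (-0.07 and 0.10), while Vamp2, its vesicle partner, was lower on both (-0.37 and -0.21). Calcium sensing and priming factors were lower on both scales, with -0.44 and -0.27 for Syt7 (synaptotagmin 7), -0.46 and -0.31 for Cadps (CAPS1), and -0.45 and -0.29 for Rph3al, a RAB effector.

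The hormones of the other endocrine cells differed in direction from the beta cell lists on the scaled fits. Of 10 tested alpha cell genes, 4 were higher and 1 lower on the median-gene scale, beside 24.6% and 20.0% of all genes tested. On the endocrine scale 6 were higher and 0 lower, beside 45.1% and 7.23% of all genes, while 10 were lower with the deposited values, beside 81.5%. Gcg, glucagon, was at 6037 and 5919 FPKM in CTR_PBS, against 4546 and 4779 FPKM in KO_PBS, which is 0.17 higher on the median-gene scale (adjusted p = 0.0287) and 0.34 higher on the endocrine scale, against -0.36 with the deposited values. Its call on the median-gene scale was lost without either control library (adjusted p = 0.118 and 0.124) and without KO_PBS replicate 2 (adjusted p = 0.0997). Ttr, transthyretin, was higher on both scales (0.31 and 0.48), as was Gc, the vitamin D binding protein of alpha cells (0.23 and 0.40), and both were lower with the deposited values (-0.22 and -0.29). Slc7a2, an arginine transporter, was lower on the median-gene scale (-0.20) and not called on the endocrine scale (-0.04).

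Delta, PP and epsilon cell genes were higher in 7 of 8 tested and lower in 1, on both scales (medians 0.36 and 0.52). With the deposited values 2 were higher and 4 lower. Of all genes tested, 24.6% were higher on the median-gene scale, 45.1% on the endocrine scale and 8.66% with the deposited values. Sst, somatostatin, was at 1767 and 1801 FPKM in CTR_PBS, against 1430 and 1580 FPKM in KO_PBS, changes of 0.28 on the median-gene scale and 0.45 on the endocrine scale, against -0.25 with the deposited values. Ppy, pancreatic polypeptide, changed by 0.32 and 0.49 on the same scales and by -0.21 with the deposited values, and its call on the median-gene scale was lost without CTR_PBS replicate 1 (adjusted p = 0.0784). Pyy, peptide YY, changed by 0.17 and 0.34, against -0.36 with the deposited values, and its call on the median-gene scale was lost without either control library (adjusted p = 0.053 and 0.0526). Hhex, the delta cell factor named after its values were seen, was at 2.65 and 2.47 FPKM against 4.3 and 3.4 FPKM, a change of 0.86. Rbp4, a retinol carrier of delta cells, changed by 0.39, and was not called with the deposited values (-0.13). Casr, the calcium-sensing receptor, was the lower one (-0.31 and -0.16).

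Ratios of hormone genes within a library depend on no scale. Gcg was 0.00943 and 0.00889 of Ins2 in CTR_PBS and 0.0112 and 0.0121 in KO_PBS. Sst was 0.00276 and 0.0027 of Ins2 in CTR_PBS and 0.00354 and 0.00402 in KO_PBS, and Ppy was 0.00334 and 0.0035 against 0.00451 and 0.00521. In each of these 3 ratios both KO_PBS libraries were above both controls, and all 5 WT libraries were higher still: Gcg spanned 0.0237 to 0.061 of Ins2 there, Sst 0.00713 to 0.0114 and Ppy 0.00831 to 0.0145.

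Ratios among beta cell and granule genes were added after the values were seen, and they are given without a test, since 2 against 2 libraries cannot go below an exact permutation p of 0.333. Mafa was 1.05 and 1.01 of Pdx1 in CTR_PBS and 0.682 and 0.761 in KO_PBS. Both KO_PBS libraries lay below all 5 WT libraries, which spanned 1.02 to 1.7. Chgb was 0.0954 and 0.101 of Chga in CTR_PBS and 0.187 and 0.167 in KO_PBS, above the WT libraries (0.0709 to 0.0968). Ucn3 was 0.000383 and 0.000365 of Ins2 in CTR_PBS and 0.000224 and 0.000221 in KO_PBS, below every WT library in the plot of ratios. At least 1 CTR_PBS library was also outside the WT range in each of these 3 ratios, by less than the KO_PBS libraries: 1.01 for Mafa to Pdx1, 0.101 for Chgb to Chga, and both values for Ucn3 to Ins2. These ratios show unequal change of a pair of genes in 1 library and not which of the pair changed.

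The BcBKO islets on HFD and their flox/flox controls come from other libraries and share none with this comparison, and the labels do not say that they carry the same genotype. Chgb was 0.0563 and 0.0713 of Chga in flox/flox, against 0.12 and 0.104 in BcBKO. Mafa was 1.58 and 1.73 of Pdx1 in flox/flox, against 1.19 and 1.39 in BcBKO, so that both BcBKO libraries were above both CTR_PBS libraries. Ucn3 to Ins2 overlapped between the HFD groups, at 0.00055 and 0.000703 in flox/flox, against 0.000573 and 0.000605 in BcBKO. Of the 50 endocrine genes lower on both scales here, 31 (62%) had a lower value in BcBKO than in flox/flox on HFD, with a median of -0.04, beside 51.0% of the 11074 genes in both fits. Of 38 measured there that were higher here on both scales, 10 (26.3%) had a lower value, with a median of 0.13. On HFD Gad1 had a value of -0.58, Chgb of 0.56, Vgf of 0.62 and Txnip of 0.54, while Glp1r had 0.28, Ffar1 0.19 and Reg3b -1.59, against the direction here, each with an adjusted p = 1 in the limma fit of that table. Of the 19 beta cell transcription factors, 8 (42.1%) had a lower value on HFD, with a median of 0.03, and of 28 acinar genes 27 (96.4%) did, with a median of -0.43. The flox/flox libraries differed widely in acinar level, with sums of 35040 and 104600 FPKM. Both BcBKO libraries, at 48460 and 45540 FPKM, lay between them, so the acinar count shows no separation of the HFD groups.

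**Figure D3:**
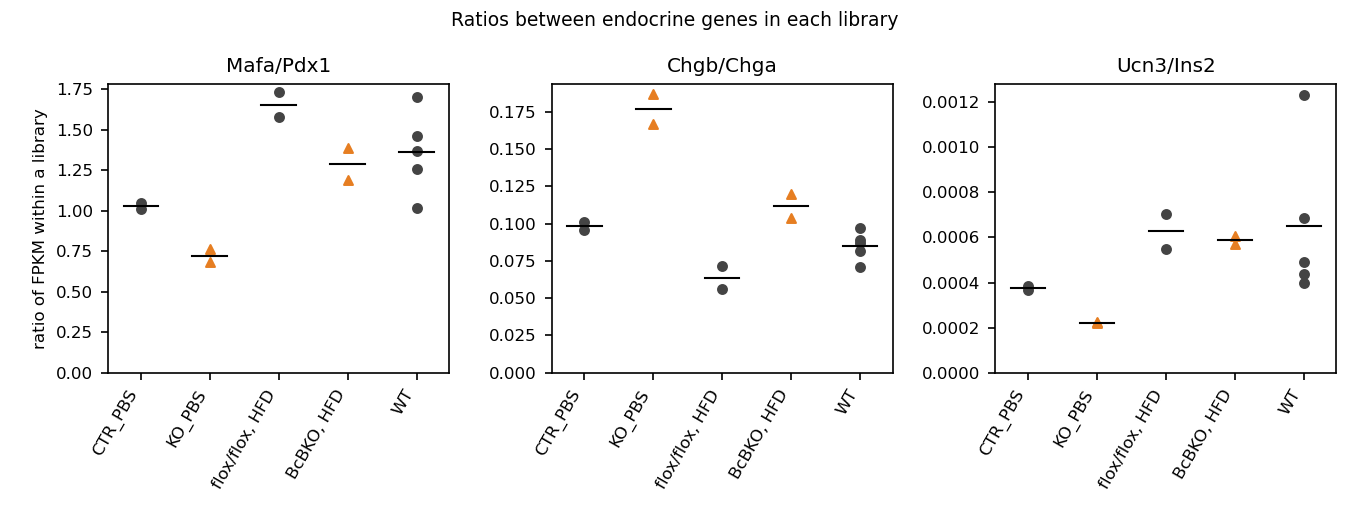
Ratio of the FPKM of 2 genes in the same library (y axis) for Mafa to Pdx1, Chgb to Chga and Ucn3 to Ins2, by group, with triangles for the libraries labelled KO_PBS and BcBKO, circles for the others and a bar at each mean. The KO_PBS libraries lie outside the range of the 5 WT libraries in all 3 panels, farther than the CTR_PBS libraries, for instance at 0.682 and 0.761 for Mafa to Pdx1.

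Genes that mature beta cells normally keep low, or that mark their dedifferentiation, were mostly higher. Of 13 tested, 12 were higher and 1 lower on both the median-gene (median 0.70) and the endocrine scale (0.86), and 10 were higher and 2 lower with the deposited values, where the backgrounds are those given above. Of these 13, 4 were below 1 FPKM in both CTR_PBS libraries and so passed the filter through knockout libraries, which favours a higher call. Cck and Gast, the peptide hormones cholecystokinin and gastrin, are among those 4 and were named after their values were seen. Cck was at 0.22 and 0.15 FPKM in CTR_PBS and at 2.26 and 4.43 FPKM in KO_PBS, a change of 2.15, and Gast was at 0.6 and 0.45 FPKM against 2.92 and 2.03 FPKM, a change of 1.51. WT islets held between 0.12 and 0.49 FPKM of Cck. Ldha, lactate dehydrogenase A, was at 9.92 and 8.28 FPKM against 15.9 and 15.4 FPKM, a change of 1.22, and Oat, ornithine aminotransferase, was at 6.5 and 5.81 FPKM against 11.6 and 10.7 FPKM, a change of 1.25.

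Several members of that list are expressed outside endocrine cells, and the acinar share moved with them as given above: their part in the change of Ldha and Oat was not tested. Aldh1a3, the aldehyde dehydrogenase of dedifferentiated beta cells, was at 28.5 and 27.2 FPKM in CTR_PBS, against 22.9 and 20.8 FPKM in KO_PBS, a change of 0.17 on the median-gene scale and 0.34 on the endocrine scale, against -0.34 with the deposited values. Its call on the median-gene scale was lost without either control library (adjusted p = 0.0587 and 0.12) and without KO_PBS replicate 1 (adjusted p = 0.0791). The level was high in both groups beside WT islets, which spanned 1.38 to 4.78 FPKM. Maob, monoamine oxidase B, was the lower member of the list, with changes of -0.51 and -0.34.

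Txnip, which encodes the thioredoxin-interacting protein and is induced by glucose through ChREBP, had the largest rise of the tested endocrine list genes after Cck. It was at 146.5 and 145.8 FPKM in CTR_PBS and at 370.4 and 354.8 FPKM in KO_PBS, a change of 1.83 ± 0.0382 (adjusted p = 3.5e-08) and of 2.00 on the endocrine scale. Arrdc4, the arrestin-like paralog that shares this regulation, was at 4.48 and 4.55 FPKM against 8.3 and 8.39 FPKM, a change of 1.23, and Pdk4, which restrains pyruvate oxidation, was at 3.27 and 3.1 FPKM against 7.64 and 7.39 FPKM, a change of 1.48. Arrdc4 and Pdk4 were named after their values were seen. The ChREBP list, with Txnip, Arrdc4 and Pdk4 counted in it, did not move as one. Of 15 tested, 7 were higher and 5 lower on the median-gene scale, beside 24.6% and 20.0% of all genes. On the endocrine scale 8 were higher and 3 lower, beside 45.1% and 7.23%. Mlxipl, which encodes ChREBP, was lower on the median-gene scale (-0.22) and not called on the endocrine scale (-0.06), and Acly, ATP citrate lyase, was lower on both (-0.35 and -0.18). ChREBP binds paired E-boxes related to CACGTG, which 6.02% of 32851 promoters hold in the 250 bases before the start. Counted by gene, 10.0% of tested genes with an annotated promoter held it in any promoter of the gene. The window of Arrdc4 (chr7:68749239-68749488, minus strand) holds 1 copy of CACGTG, in capitals, 193 bases before the start, and is shown as the promoter of a gene that rose with Txnip.

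Arrdc4: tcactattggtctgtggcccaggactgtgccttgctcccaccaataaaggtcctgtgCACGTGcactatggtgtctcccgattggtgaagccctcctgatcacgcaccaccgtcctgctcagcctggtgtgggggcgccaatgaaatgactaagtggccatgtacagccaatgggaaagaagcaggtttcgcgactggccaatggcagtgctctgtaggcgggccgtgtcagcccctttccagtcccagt

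The 20 lower genes with the largest change at 5 FPKM or more held, beside the list members above, genes outside the lists. Kcnh1, a voltage-gated potassium channel, changed by -0.98, Serpina10, a serpin, by -0.93, and Ogdhl, an oxoglutarate dehydrogenase homolog, by -0.92. Serpina10 was at 173.9 and 177.9 FPKM in CTR_PBS, against 65.4 and 61.9 FPKM in KO_PBS, and WT islets spanned 32.9 to 100.3 FPKM. Ccl28, a mucosal chemokine, changed by -0.91 and Pcp4, a calmodulin regulator, by -0.90. Asb11, Sdk2, Cttnbp2 and Crybb3 changed by -0.92, -0.93, -0.99 and -1.18. Of these 20 genes, all of which were also measured on HFD, 14 (70%) had a lower value in BcBKO than in flox/flox there, with a median of -0.19. Among all 11074 genes in both fits the share with a lower value was 51%, and the difference between the shares was not tested.

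None of the 20 highest genes was on an endocrine list. They were mostly transcripts of B cells and other leukocytes, with 1 acinar gene, Prss1. Of 17 tested B cell genes, 17 were higher on the median-gene, endocrine and deposited values alike, with a median of 2.55, and their summed level was 7.8 and 8.08 FPKM in CTR_PBS, against 109.7 and 105.2 FPKM in KO_PBS over the 18 members. In CTR_PBS 4 and 3 of the 18 members were listed at 0, and in KO_PBS 0. Only 2 members reached 1 FPKM in each CTR_PBS library and 17 did in each KO_PBS library, so most passed the filter through KO_PBS, which favours a higher call. Cd79b and Cd79a encode the paired chains through which the B cell receptor signals, and were at 0.07 and 0.17 FPKM and at 3.23 and 3.1 FPKM in CTR_PBS, and at 9.65 and 10.8 FPKM and 30.3 and 29.9 FPKM in KO_PBS. Ms4a1, which encodes CD20, was listed at 0 in both CTR_PBS libraries and was at 5.53 and 5.39 FPKM in KO_PBS. Cd37, Ly6d, Fcmr and Pou2af1, all of B cells, and H2-DMb2, which loads MHC class II in them, changed by 2.82 to 3.40.

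Chemokines that gather lymphocytes were among them: Cxcl13, which attracts B cells, was at 0.22 and 0.07 FPKM against 6.54 and 6.46 FPKM, and Ccl21a, which attracts T cells, was at 0.21 and 0.54 FPKM against 5.72 and 7.04 FPKM. Ltb, the lymphotoxin that organises lymphoid tissue, changed by 2.82 and Coch, which encodes cochlin, by 2.96. Coro1a and Cd52, both of leukocytes, changed by 2.99 and 2.83, and Plac8 by 3.12. T and NK cell genes were mostly too low to test: 4 of 20 passed the filter and those 4 were higher, which passing through the high group favours, among them Cd2 (1.65) and Cd3g (1.42). Their summed level over 19 members was 2.86 and 2.31 FPKM in CTR_PBS, against 13.3 and 13.8 FPKM in KO_PBS.

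Myeloid and antigen presentation genes were also higher. Of 18 tested macrophage and dendritic cell genes, 17 were higher (median 0.90), beside 24.6% of all genes tested. Their summed level over 21 members was 218.4 and 215.4 FPKM in CTR_PBS, against 354 and 339.9 FPKM in KO_PBS. Lyz2, lysozyme 2, took much of that difference, at 11.3 and 10.4 FPKM against 94.5 and 89.0 FPKM (3.48). Csf1r, the receptor of macrophage growth factor, changed by 1.21, Cd68 by 1.10 and Laptm5 by 1.86. All 10 MHC class II genes were higher (median 1.47), and 4 of them were below 1 FPKM in both CTR_PBS libraries and passed the filter through knockout libraries, which favours a higher call. Cd74, the invariant chain, was at 109.7 and 103.0 FPKM against 205.1 and 214.9 FPKM. B2m, the light chain of MHC class I, was at 105.6 and 97.9 FPKM against 152.4 and 155.5 FPKM, a change of 1.12, and 15 of 17 tested interferon and MHC class I genes were higher. All 14 tested genes of inflammation and chemokines were higher (median 1.39), of which 6 were below 1 FPKM in both CTR_PBS libraries, and with the deposited values 12 were higher and 0 lower.

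Acinar and matrix genes completed the shift. All 30 tested acinar genes were higher on each scale, from 1.03 to 2.93 with a median of 1.46, as were all 6 of the REG family (median 1.43), secreted lectins made by acinar cells. Amy2a5, a pancreatic amylase named after its values were seen, was at 57486 and 58453 FPKM in CTR_PBS, against 102162 and 101175 FPKM in KO_PBS. Reg3b was at 667.2 and 633.9 FPKM against 1227 and 1181 FPKM, a change of 1.42, and Reg3g changed by 1.60. Try4, a trypsinogen, and Rbpjl, an acinar transcription factor, changed by 1.61 each. Prss1 was at 3.17 and 3.2 FPKM against 21.3 and 22.6 FPKM (2.93), and the near-identical trypsinogen genes make its count uncertain. Of 16 tested stellate cell and matrix genes, 15 were higher (median 1.16), beside 24.6% of all genes tested. Among them were Col1a1 (2.11), Col3a1 (1.92), Dcn (1.88) and Col1a2 (1.78).

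The direction of the endothelial genes depended on the scale: of 11 tested, 8 were higher and 2 lower on the median-gene scale (median 0.23), 8 and 1 on the endocrine scale, and 0 and 9 with the deposited values. Kdr, the receptor of VEGF on capillaries, was at 19.3 and 19.4 FPKM in CTR_PBS, against 10.8 and 10.4 FPKM in KO_PBS, lower on the median-gene scale (-0.32) and on the endocrine scale (-0.16). None of the 3 tested Schwann cell genes was called.

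These cell type levels vary between islet preparations of the series as well. Over the 27 acinar members present in all 3 tables, the acinar share was 7.11% to 46.0% in the 5 WT libraries, a range that holds both PBS groups. Over the 12 B cell members present in all 3 tables, the summed level was 7.75 and 8.00 FPKM in the controls, 90.2 and 94.7 FPKM in KO_PBS, 8.29 to 97.95 FPKM in WT and 8.18 and 8.32 FPKM in KO_REG3B-Fc. The knockout libraries given REG3B-Fc were thus close to CTR_PBS in the B cell sum, and the same held for Cd79b, at 0.17 and 0.21 FPKM there. In those libraries Mafa was at 70.5 and 62.7 FPKM, Ucn3 at 221.5 and 221.9 FPKM and Gad1 at 35.9 and 34.1 FPKM, while Spp1 was at 87.2 and 88.4 FPKM, Rgs4 at 12.2 and 12.3 FPKM and Txnip at 347.0 and 321.6 FPKM. The endocrine changes and the shift in acinar, immune and matrix transcripts are carried by the same 2 KO_PBS pools, and the part of that shift in the endocrine changes was not tested.

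**Figure D4:**
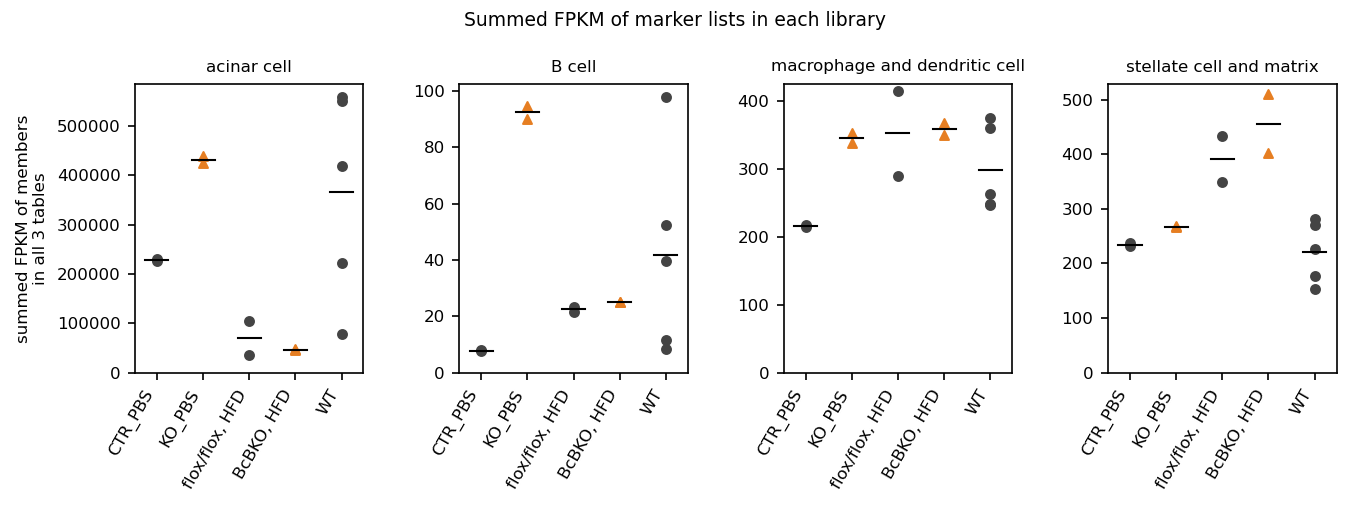
Summed FPKM of the marker list members present in all 3 tables (y axis, separate scale in each panel) in each library by group, with triangles for the libraries labelled KO_PBS and BcBKO, circles for the others and a bar at each mean. The KO_PBS libraries stand above both CTR_PBS libraries in each panel, and the WT libraries span as wide a range for acinar and B cell genes, from 8.29 to 97.95 FPKM for the latter.

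The response lists are read beside the shares of all genes tested, which were 24.6% higher and 20.0% lower on the median-gene scale, 45.1% higher on the endocrine scale and 81.5% lower with the deposited values. Proliferation genes were higher in 14 of 17 tested and lower in 2 (median 0.84), in 15 and 2 on the endocrine scale, and in 9 and 4 with the deposited values. Of these 17, 8 were below 1 FPKM in both CTR_PBS libraries, so that passing the filter favours a higher call. The B cell genes rose in the same libraries, and their part in it was not tested. Unfolded protein response genes were higher in 8 of 17 and lower in 4 on the median-gene scale, and 1 higher and 14 lower with the deposited values. Heat shock and immediate early genes were higher in 13 of 15 and lower in 0 on the median-gene scale, and higher in 2 and lower in 9 with the deposited values. Antioxidant and metallothionein genes were higher in 9 and lower in 3 of 16 on the median-gene scale, against 2 higher and 13 lower with the deposited values. Oxidative phosphorylation genes were higher in 8 and lower in 2 of 21 on the median-gene scale, higher in 17 on the endocrine scale and lower in 20 with the deposited values.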

How the data were processed

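Islet messenger RNA was sequenced from both fragment ends on a BGISEQ-500 machine, per the labels' protocols. The authors deposited FPKM per gene for the libraries used here, and, for this comparison, their own log2 fold changes with adjusted p-values, which come from DESeq2 per the file headers. The build is GRCm38.p6 per the submitters' processing notes, and the aligner and counting program are not given in the sources used here. Columns were matched to samples by their library numbers, and 0 columns of values lacked a match. Read depth is unknown: whole reads could not be recovered from the FPKM, so no counting interval was computed. Each of the 4 libraries had 11153 to 11304 genes at 1 FPKM or more. Between replicates the log2 ratio had a robust SD, over 385 genes of at least 100 FPKM, of 0.0542 in CTR_PBS and 0.0853 in KO_PBS. Nothing says whether the 2 libraries of a group came from separate animals, so p-values measure the spread between these pools, which may be technical.

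Of 17549 genes, the 11789 with at least 1 FPKM in at least 2 of the 6 libraries of the table were tested on log2(FPKM + 1), which understates the change of low genes, with limma 3.58.1 under R 4.3.3 (moderated by empirical Bayes along a trend, two-sided, 3 residual degrees of freedom, all 6 libraries in 1 fit). Libraries were divided by their median ratio to the geometric mean library (1.11, 1.093, 0.7701 and 0.7562 for CTR_PBS and KO_PBS) and, for the endocrine scale, further by the median ratio over 29 of 32 endocrine reference genes at 5 FPKM or more in every library. On simulated data for the median-gene scale (11789 genes, 50 changed at each size), the fit recovered 32%, 60%, 98% and 100% of changes of 0.25, 0.5, 1 and 2 log2 units, and 3.97% of calls were unchanged genes. Genes were named by rule: Smarcd3, members of the endocrine lists with at least 10 FPKM in either group, the 4 members of each other list with the largest change, and, at either end, the 20 genes of largest change at 5 FPKM or more. Other names are said to be chosen after their values were seen. The members and gene lists were chosen with earlier results of these data known. Alternatives were other scales, no filter, another pseudocount, only the 4 libraries compared, the replicate number as a block and each library left out. Promoters came from RefSeq for GRCm38.p6. Some results are not reported here.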

Additional observations from a re-analysis of the deposited data

Results flagged for a closer look

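The endothelial list and the Schwann and nerve cell list differed between contrasts in opposite directions, every library of each knockout group lying on one side of its controls. As a share of summed FPKM over members present in all tables, endothelial genes were at 0.0159% in CTR_PBS and 0.0136% in KO_PBS, a difference of -0.0023 percentage points, and at 0.02365% in flox/flox and 0.03135% in BcBKO islets on HFD, a difference of 0.0077 percentage points. Schwann and nerve cell genes were at 0.000715% in CTR_PBS and 0.0005525% in KO_PBS, a difference of -0.000162 percentage points, and at 0.00161% in flox/flox and 0.001805% in BcBKO, a difference of 0.000195 percentage points. On the median-gene scale 8 of 11 tested endothelial genes were higher and 2 lower in KO_PBS (median 0.23), and 0 of 3 tested Schwann and nerve cell genes were called, so the opposite directions hold for the share of summed FPKM. The difference between the contrasts was not tested, and the labels do not say that KO_PBS and BcBKO share a genotype. The share moves with the large insulin and acinar transcripts of each library.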

How the results depend on the processing

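The counts of calls depend most on the scale. Genes higher on the median-gene scale (2905) were 1021 with the deposited FPKM and 1124 when libraries were set to an equal sum without insulin, acinar and REG genes, and genes lower (2357) were 9603 and 9165. On the endocrine scale, a reference of beta cell factors and glucose sensing genes gave 8115 higher (5321) and 343 lower (852). Leaving out each library gave 1436 to 1959 lower and 2226 to 2537 higher on the median-gene scale, and 520 to 722 lower and 4165 to 4773 higher on the endocrine scale, the smallest counts coming without CTR_PBS replicate 1 (1436 and 537 lower) and without CTR_PBS replicate 2 (1513 and 520 lower), where the lone control is assumed to vary like the other groups. Of the 2357 lower genes, 1399 and 1484 were also lower without these, and 852 on the endocrine scale.

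Among 123 named genes, 14 turned direction with the deposited FPKM and with the equal sum, where values were respectively -0.13 and -0.09 for Smarcd3, -0.38 and -0.30 for Scg5, -0.48 and -0.40 for Rfx6, -0.23 and -0.15 for Glud1, -0.29 and -0.21 for Ptprn, -0.36 and -0.28 for Gcg, -0.22 and -0.14 for Ttr, -0.29 and -0.22 for Gc, -0.25 and -0.17 for Sst, -0.21 and -0.13 for Ppy, -0.36 and -0.28 for Pyy, -0.13 and -0.05 for Rbp4, -0.34 and -0.26 for Aldh1a3, and -0.14 and -0.07 for Smarcd2. On the endocrine scale 8 turned: Iapp (0.04), Pcsk1 (0.15), Pcsk2 (0.11), Cpe (0.15), Foxo1 (0.08), Abcc8 (0.00), Gipr (0.01), and Snap25 (0.10). Leaving out each library in turn changed the sign of Smarcd3 (-0.01 to 0.31), Cpe (up to 0.03) and Rfx6 (-0.02 to 0.07), none of which was called with all libraries, though Smarcd3 was without KO_PBS replicate 1 (adjusted p = 0.0238). Without either KO_PBS replicate 111 of the 123 had a value, and 12 did not pass the filter. No pseudocount or restriction to the 4 libraries changed a call of a named gene. The replicate numbers are not known to pair the pools (correlation of their deviations 0.023, from 2 pairs): with the number as a block, 2850 genes were higher and 2296 lower on the median-gene scale and 5254 and 816 on the endocrine scale, and Ins2, Iapp and Gipr were called (adjusted p = 0.0185, 0.0206 and 0.0498). Unknown depth limits genes near 1 FPKM, such as Smarcd3 and the T cell genes.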
